A study of Mus musculus with 3 samples.

Results

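The 10 genes described here encode the major histocompatibility complex (MHC) class I molecules of the mouse: the 9 heavy-chain genes H2-K1, H2-D1, H2-Q4, H2-Q6, H2-Q7, H2-T22, H2-T23, H2-M3 and H2-M9, and B2m, the light chain. They were taken by symbol from the 31053 features of 3 single-cell RNA libraries, and each symbol was found once in every library. The libraries came from stromal and vascular cells of mouse inguinal adipose tissue, a subcutaneous fat pad. They were labelled Pdgfra-Cre; TERT fl/fl (Pdgfra-Cre below), Pdgfrb-Cre; TERT fl/fl (Pdgfrb-Cre) and TERT +/+ (WT). Tert is the gene of telomerase's catalytic protein, and the design sets its conditional removal against an intact gene. The Cre recombinase removes floxed sequence in cells that use, or whose ancestors used, the promoter of a platelet-derived growth factor receptor, and both receptors are found in mesenchymal cells, so immune and endothelial cells are not the intended target of either driver. Whether WT carried a Cre is not stated in the labels used here, nor are the strain, MHC haplotype, age, sex and number of animals. The title of the WT library also carries the letters PBS, which the labels do not explain. Per the labels, the preparation included a dead-cell removal kit and a step against red cells.

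Class I molecules carry short peptides from inside the cell to its surface, where CD8 T cells and natural killer (NK) cells inspect them. The heavy chain binds the peptide and B2m, without which most heavy chains do not reach the surface. H2-K1 and H2-D1 encode the classical chains, which nearly all nucleated cells use and which interferons raise. The Q, T and M genes encode the non-classical chains. They include Qa-2 (H2-Q6 and H2-Q7) and Qa-1 (H2-T23), which presents a peptide of classical chains to the CD94/NKG2 receptors of NK cells.

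On GRCm38 (GENCODE M21 annotation) the 9 heavy-chain genes lie within 3.28 Mb of chromosome 17, and B2m lies apart on chromosome 2 at chr2:122147686-122153083 (+ strand). H2-K1 is at chr17:33996017-34000347 (- strand), H2-D1 at chr17:35262730-35267499 (+), H2-Q4 at chr17:35379617-35385290 (+), H2-Q6 at chr17:35424850-35430055 (+) and H2-Q7 at chr17:35439155-35443773 (+), only 9.1 kb from H2-Q6. H2-T23 is at chr17:36029773-36032855 (-) and H2-T22 at chr17:36037128-36042747 (-), 4.3 kb away. H2-M9 is at chr17:36639285-36642666 (-) and H2-M3 at chr17:37270220-37274484 (+). The promoters below, 250 bases before to 50 after the start, come from RefSeq (GRCm38.p6). They are shown because the genes share, or lack, the elements through which class I genes are known to respond to interferon and NF-kB. Their windows are chr17:34000298-34000597 (-) for H2-K1, chr17:35262844-35263143 (+) for H2-D1, chr17:35424600-35424899 (+) for H2-Q6, chr17:35438905-35439204 (+) for H2-Q7, chr2:122147437-122147736 (+) for B2m and chr17:36642614-36642913 (-) for H2-M9. All run 5′ to 3′ on the gene's strand. Capitals mark enhancer A (searched as GGGATTCCC, bound by NF-kB) and the interferon element, searched in 2 spacings, an IRF pair (GAANNGAAA) and an ISRE core (GAAANNGAA), or the complement of either.
H2-K1: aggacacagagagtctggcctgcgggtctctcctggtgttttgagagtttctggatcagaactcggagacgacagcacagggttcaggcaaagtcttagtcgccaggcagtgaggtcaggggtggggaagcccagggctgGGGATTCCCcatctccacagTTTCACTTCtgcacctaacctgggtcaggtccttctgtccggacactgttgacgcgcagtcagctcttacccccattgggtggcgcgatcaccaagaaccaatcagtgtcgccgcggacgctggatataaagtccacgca
H2-D1: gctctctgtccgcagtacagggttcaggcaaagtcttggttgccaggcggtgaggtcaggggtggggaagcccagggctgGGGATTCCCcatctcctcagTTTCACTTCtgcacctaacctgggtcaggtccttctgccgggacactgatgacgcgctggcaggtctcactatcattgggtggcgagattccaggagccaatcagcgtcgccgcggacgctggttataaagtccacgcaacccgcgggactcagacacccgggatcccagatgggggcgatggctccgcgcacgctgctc
H2-Q6: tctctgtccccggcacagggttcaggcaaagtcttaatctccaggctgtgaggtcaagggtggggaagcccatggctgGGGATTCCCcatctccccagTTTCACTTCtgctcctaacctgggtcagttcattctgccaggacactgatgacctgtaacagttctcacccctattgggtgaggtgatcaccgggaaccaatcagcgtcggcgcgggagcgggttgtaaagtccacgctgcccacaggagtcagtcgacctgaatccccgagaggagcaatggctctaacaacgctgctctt
H2-Q7: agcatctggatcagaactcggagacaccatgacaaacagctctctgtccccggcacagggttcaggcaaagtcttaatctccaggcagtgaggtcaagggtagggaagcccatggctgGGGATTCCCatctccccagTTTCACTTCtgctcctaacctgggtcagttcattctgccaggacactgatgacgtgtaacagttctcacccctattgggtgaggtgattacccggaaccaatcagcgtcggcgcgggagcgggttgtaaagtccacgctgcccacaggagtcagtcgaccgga
B2m: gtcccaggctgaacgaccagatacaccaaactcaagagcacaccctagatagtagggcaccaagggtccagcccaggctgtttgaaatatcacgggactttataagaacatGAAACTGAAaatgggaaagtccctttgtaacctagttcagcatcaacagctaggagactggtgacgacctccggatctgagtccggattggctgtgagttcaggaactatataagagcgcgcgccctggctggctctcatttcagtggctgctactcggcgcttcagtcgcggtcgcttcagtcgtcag
H2-M9: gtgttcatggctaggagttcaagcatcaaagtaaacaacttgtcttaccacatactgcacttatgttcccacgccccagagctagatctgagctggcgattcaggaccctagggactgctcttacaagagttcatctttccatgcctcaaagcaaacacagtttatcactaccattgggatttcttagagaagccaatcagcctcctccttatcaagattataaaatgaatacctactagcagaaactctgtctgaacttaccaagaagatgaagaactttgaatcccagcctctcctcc

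Both strands were searched, and no promoter of the 10 held both spacings of the interferon element. An IRF pair stood in the promoters of 6 of the 10 members (H2-K1, H2-D1, H2-Q4, H2-Q6, H2-Q7 and H2-M3), against 7.56% of all 27025 RefSeq promoters of the same length. An ISRE core stood in 3 (H2-T22, H2-T23 and B2m), against 8.57% of all. Enhancer A stood in 4 (H2-K1, H2-D1, H2-Q6 and H2-Q7), against 0.37% of all, or 100 promoters. In each of these 4 it lay just ahead of the IRF pair, which began at -90 from the start in H2-K1, -150 in H2-D1, -152 in H2-Q6 and -113 in H2-Q7. H2-M9 held none of these 3, only a CCAAT box, which stood in all 10 members and in 37.92% of all promoters. A CRE-like TGACG stood in 7 members and in 21.02% of all. These matches describe letters in 1 window per gene and say nothing of what binds there in these cells.

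The 3 libraries held 2310 barcodes (Pdgfra-Cre), 4355 (Pdgfrb-Cre) and 4124 (WT), with 14438471, 30826733 and 13352288 unique molecular identifiers (UMIs, 1 per captured RNA molecule) in that order. After filtering, 1409, 3903 and 2668 cells were kept, at a median of 7522 UMIs per cell in Pdgfra-Cre, 5675 in Pdgfrb-Cre and 3321 in WT. At most 2 cell barcodes were shared between any pair of libraries. Clusters were named by RNA markers, and every class name means like that class. In 19 sums of a class and a library with at least 50 cells, over 9 classes, all the marker lists were at most 2 markers short of 50 CPM (a gene's UMIs per 1000000 UMIs of that sum), except in WT dendritic cells (5 of 10 markers over it). Tert itself had 7 UMIs in Pdgfra-Cre cells, 10 in Pdgfrb-Cre cells and 14 in WT cells, and in stromal cells 4, 1 and 3, so its removal could not be checked at this depth. Each genotype was 1 library, so genotype, animal and library cannot be told apart, no test between genotypes was possible, and each difference below is between libraries. All intervals given are 95% intervals of counting error; spread between animals or between cells is not in them.

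The 9 heavy chains had 276484 UMIs in the kept cells and B2m 89668. Other class I symbols, 15 in the files, had 2668 UMIs together, so the 9 members held 99.0% of class I heavy-chain UMIs. H2-D1 gave 57.6% of the 9 chains' UMIs and H2-K1 27.6%, followed by H2-Q7 with 11288 UMIs, H2-T23 with 9385, H2-Q4 with 7942, H2-Q6 with 6199, H2-T22 with 3753, H2-M3 with 1943 and H2-M9 with 381. These are counts of 3′ tags, 1 per molecule whatever the gene's length, but the genes' tails differ in how far a read can be told from another gene's. Of the 50-base windows in the last 500 bases of the transcript, the share that also occurs in another gene was 59.2% in H2-T22 (shared with H2-T10), 38.1% in H2-T23, 35.9% in H2-Q6 and 33.7% in H2-Q4. It was 9.5% in H2-D1, 6.2% in H2-Q7 and 0.4% in H2-K1, and 0 in H2-M3, H2-M9 and B2m. Levels of H2-T22, H2-T23, H2-Q4 and H2-Q6 are therefore uncertain relative to other genes, because reads that match several genes can be lost or split. This reference sequence is of 1 strain, and reads of another MHC haplotype could be counted unequally.

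Stromal cells had the lowest class I heavy-chain RNA of the classes measured in all 3 libraries, and dendritic cells the highest, in WT, the only library with enough of them. The 9 heavy chains summed to 2904 CPM in Pdgfra-Cre stromal cells, 2960 in Pdgfrb-Cre and 3985 in WT, against 13300 in WT dendritic cells, 11780 in Pdgfra-Cre mesothelial cells, which line body cavities and were seen in that library only, and 10830 in WT macrophages. NK cells stood at 9314 in Pdgfrb-Cre and 7805 in WT, blood endothelial cells between 6706 and 7907, T cells between 5264 and 8215, WT mural cells (pericytes and smooth muscle) at 6146 and B cells at 4154 in Pdgfrb-Cre and 4727 in WT. Of the 18 neighbouring pairs in the order of these 19 sums, 7 had overlapping intervals. Pdgfra-Cre T cells, Pdgfra-Cre and WT endothelial cells and WT NK cells followed each other with overlaps, as did the Pdgfra-Cre and Pdgfrb-Cre stromal sums. B2m had the same ends, the top at 5894 CPM in WT dendritic cells and the bottom at 819 CPM in Pdgfra-Cre stromal cells, and 11 of its 18 neighbouring pairs overlapped.

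**Figure D1:**
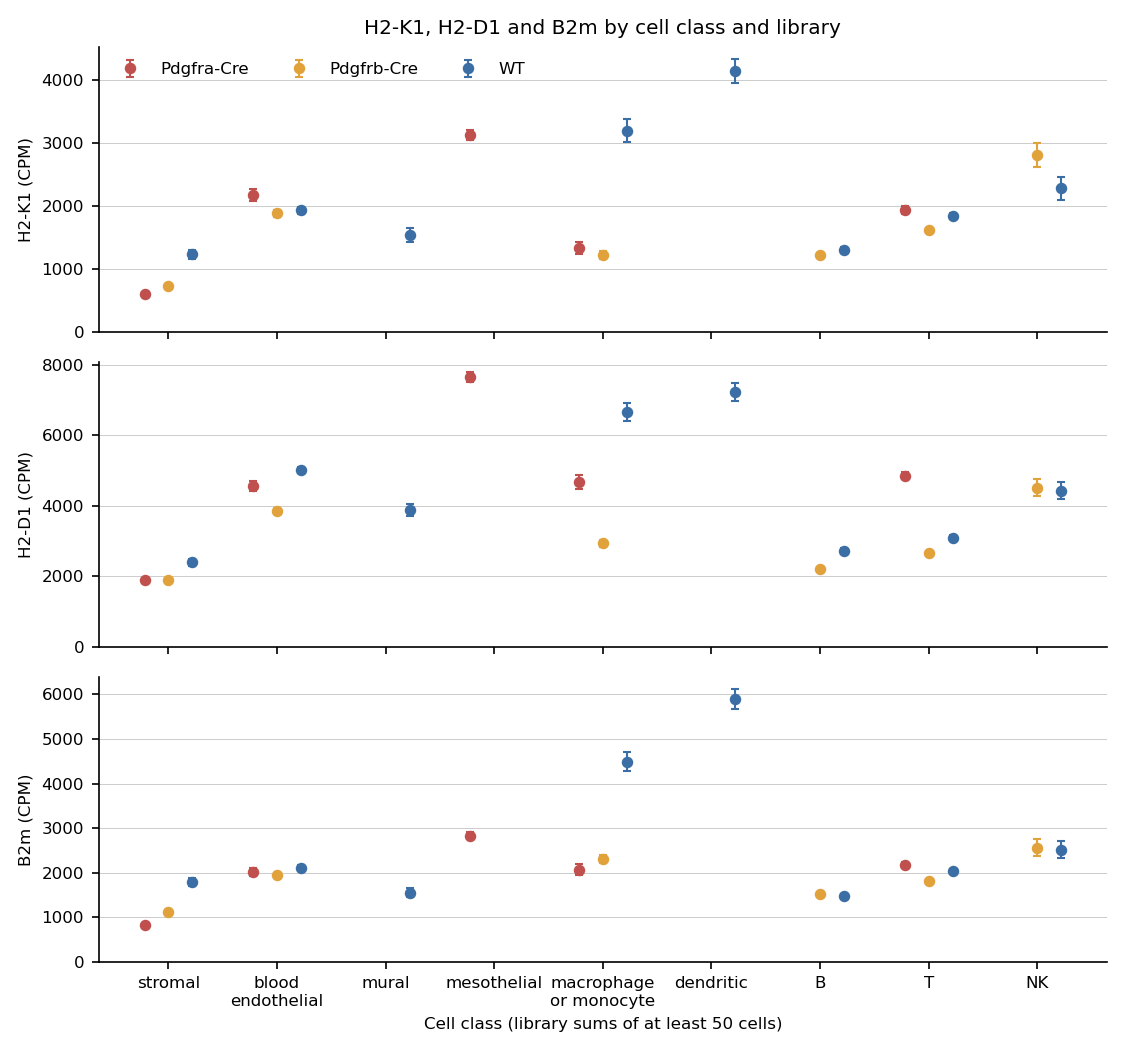
Levels of H2-K1, H2-D1 and B2m (CPM, 1 panel each, axes from 0) by cell class in the Pdgfra-Cre, Pdgfrb-Cre and WT libraries, with bars for 95% Poisson intervals of counting error and no point where a library had under 50 cells of a class. Pdgfra-Cre stromal cells lie lowest in each panel (588, 1896 and 819 CPM), and H2-K1 and B2m of WT macrophages (3185 and 4483 CPM) lie above both Cre libraries.

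Where a member reached 10 CPM in 1 of the libraries compared, it was counted, and each count past 2-fold is given beside the share of all genes past it. In Pdgfra-Cre against WT, 2 of 9 members were past 2-fold in stromal cells, both lower (H2-K1 and B2m), where 24.1% of 9150 genes were past 2-fold in either direction. In blood endothelial cells 3 of 10 were, H2-Q6 and H2-T22 higher and H2-M9 lower, against 13.3% of genes. In macrophages 2 of 9 were, both lower (H2-K1 and B2m), against 34.5%. In T cells 2 of 9 were, both higher (H2-Q6 and H2-Q7), against 16.7%. In Pdgfrb-Cre against WT, 0 of 9 members were past 2-fold in stromal cells (background 23.1%) and in B cells (22.4%). There were 2 of 10 in endothelial cells, H2-T22 higher and H2-M9 lower (13.8%), 2 of 9 in T cells, H2-Q6 higher and H2-M3 lower (22.7%), and 2 of 9 in NK cells, H2-Q6 and H2-Q7 higher (42.8%). In macrophages 5 of 9 were, all lower, namely H2-K1, H2-D1, H2-Q4, H2-Q7 and H2-T23, against 31.4% of genes. The members' median log2 ratio there was -1.13, against -0.06 over all genes. With macrophages taken by marker gates (51 Pdgfra-Cre, 86 Pdgfrb-Cre and 30 WT cells), 3 of these 5 had a log2 ratio short of -1, namely H2-D1 (-0.97), H2-Q7 (-0.97) and H2-T23 (-0.68), as had H2-K1 in Pdgfra-Cre (-0.94). These log2 ratios have 10 CPM added on both sides, while the counts use the plain ratio. A gene past 2-fold can thus fall short of -1, as H2-M3 did in Pdgfrb-Cre T cells (-0.974). Between the 2 Cre libraries, 0 of 9 members were past 2-fold in stromal cells (20%), 1 of 10 in endothelial cells (H2-M9, 9.23%), 1 of 9 in macrophages (H2-Q4, 19.9%) and 1 of 9 in T cells (H2-M3, 16.7%). These 3 sets of comparisons share libraries and are not independent of each other.

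**Figure D2:**
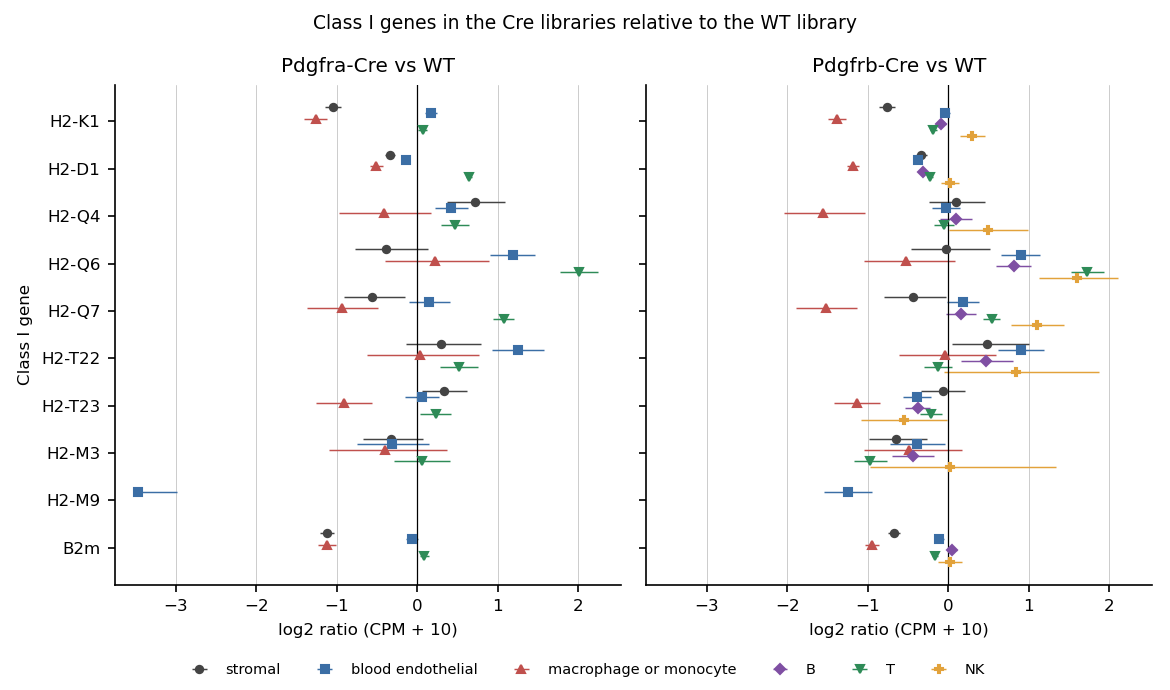
Log2 ratio (with 10 CPM added on both sides) of each member in Pdgfra-Cre and Pdgfrb-Cre cells over WT cells, by cell class, with 95% intervals of counting error. H2-K1 and B2m lie below 0 in stromal cells and macrophages of both Cre libraries, and H2-Q6 lies above 0 in T and endothelial cells of both. Members under 10 CPM in both libraries are left out, and the Pdgfra-Cre point of H2-M9 in endothelial cells rests on 0 UMIs, so its size depends on the 10 CPM added.

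The classical chains H2-K1 and H2-D1 together made up 78.5 to 91.5% of heavy-chain UMIs in the 19 sums. H2-K1 stood at 588 CPM in Pdgfra-Cre stromal cells, 721 in Pdgfrb-Cre and 1227 in WT. H2-D1 stood at 1896 CPM in Pdgfra-Cre stromal cells, 1900 in Pdgfrb-Cre and 2396 in WT. Both chains were lowest in the stromal cells of the Cre libraries, but H2-K1 differed more: it was 2.09-fold lower in Pdgfra-Cre than in WT (1.94 to 2.23) and 1.70-fold lower in Pdgfrb-Cre (1.59 to 1.82), while H2-D1 was 1.26-fold lower in both (1.21 to 1.32 in Pdgfra-Cre, 1.20 to 1.32 in Pdgfrb-Cre). The ratio of H2-D1 to H2-K1 was therefore 3.22 in Pdgfra-Cre stromal cells, 2.64 in Pdgfrb-Cre and 1.95 in WT. In all 19 sums this ratio lay between 1.61 and 3.54, so that H2-D1 exceeded H2-K1 in each.

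The stromal comparison sets different cells side by side. Of the 619 Pdgfra-Cre stromal cells, 587 fell in cluster 18. The 568 Pdgfrb-Cre cells lay mainly in clusters 2 (340 cells) and 17 (193), and the 247 WT cells in clusters 1 (183), 17 (34) and 20 (30). Pdgfra-Cre was also the only library with mesothelial cells (123). Whether the libraries sampled the same part of the tissue was not tested. Class I genes were not used for the clustering. The heavy-chain sum was 2836 CPM in cluster 18 of Pdgfra-Cre, 2651 in cluster 2 of Pdgfrb-Cre and 3695 in cluster 1 of WT. Only cluster 17 held at least 30 cells of both Pdgfrb-Cre and WT, and there the sum was 3782 CPM in Pdgfrb-Cre and 4881 in WT, a ratio of 0.775. B2m stood at 1324 CPM in Pdgfrb-Cre and 1880 in WT in the same cluster. The Pdgfra-Cre cells outside cluster 18 were 32 in number and had a heavy-chain log2 ratio to WT of 0.02, so the lower sum in Pdgfra-Cre stromal cells rested on cluster 18. When stromal cells were taken by marker gates (200 Pdgfra-Cre, 227 Pdgfrb-Cre and 102 WT cells) rather than by cluster, the log2 ratio of H2-K1 to WT was -0.43 in Pdgfra-Cre, against -1.05 by cluster. For H2-K1 in Pdgfrb-Cre it was -1.46, against -0.76 by cluster.

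Depth and stray RNA also differed among the stromal cells. The median was 9687 UMIs per stromal cell in Pdgfra-Cre, 10508.5 in Pdgfrb-Cre and 1682 in WT. With each cell thinned to 1000 UMIs, the mean was 2.84 heavy-chain UMIs per Pdgfra-Cre cell, 2.72 per Pdgfrb-Cre cell and 3.86 per WT cell, the same order as the sums. B2m averaged 0.804, 1.06 and 1.81 UMIs in the same order of libraries. Shallower cells were left out of this, 13 in Pdgfra-Cre, 3 in Pdgfrb-Cre and 32 in WT. After thinning, 41.4% of Pdgfra-Cre, 43.9% of Pdgfrb-Cre and 60.5% of WT stromal cells had an H2-K1 UMI. Without thinning the shares were 87.4%, 92.6% and 79.0%, so the raw shares ran against the levels. B cell markers, 9 in number, summed to 10.2 CPM in Pdgfra-Cre stromal cells (6 of the 9 at 0), 28.9 in Pdgfrb-Cre and 244 in WT (none at 0 in either). T cell markers, 13 in number, summed to 10.2, 28.2 and 281 CPM in the same order, with 2, 1 and 0 at 0. The WT sums were 3.17% of the B cell markers' level in WT B cells and 5.22% of the T cell markers' level in WT T cells. Markers of red cells, 7 in number, summed to 2615 CPM in Pdgfra-Cre stromal cells, 1.49 in Pdgfrb-Cre and 14.9 in WT. Their part in the class I levels was not tested.

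Macrophages of both Cre libraries also had less H2-K1, H2-D1 and B2m (in CPM) than those of WT. Macrophages and monocytes formed 1 cluster, with 76 Pdgfra-Cre, 124 Pdgfrb-Cre and 68 WT cells. H2-K1 stood at 1323 CPM in Pdgfra-Cre macrophages, 1215 in Pdgfrb-Cre and 3185 in WT, which is 2.41-fold lower (2.19 to 2.65) in Pdgfra-Cre and 2.62-fold lower (2.43 to 2.83) in Pdgfrb-Cre. H2-D1 stood at 4679 CPM in Pdgfra-Cre macrophages, 2937 in Pdgfrb-Cre and 6653 in WT. It was 1.42-fold lower in Pdgfra-Cre and 2.27-fold lower in Pdgfrb-Cre. Here too H2-K1 was the chain that differed more, and the ratio of H2-D1 to H2-K1 was 3.54 in Pdgfra-Cre, 2.42 in Pdgfrb-Cre and 2.09 in WT. Thinned to 1000 UMIs, macrophages averaged 5.91 heavy-chain UMIs in Pdgfra-Cre, 5.25 in Pdgfrb-Cre and 9.75 in WT. B cell markers summed to 153 CPM in Pdgfra-Cre macrophages, 204 in Pdgfrb-Cre and 631 in WT, and T cell markers to 52.9, 139 and 426 CPM, both lists highest in WT. Endothelial markers, 12 in number, were highest in Pdgfrb-Cre macrophages (356 CPM in Pdgfra-Cre, 696 in Pdgfrb-Cre and 485 in WT), and stromal markers (340, 246 and 262 CPM) and red-cell markers (163, 1.74 and 10.4 CPM) were highest in Pdgfra-Cre. Markers of dendritic cells, which carried the highest class I level, summed to 44.7 CPM in Pdgfra-Cre (6 of 10 at 0), 177 in Pdgfrb-Cre (1 at 0) and 171 in WT (1 at 0). The part of these lists in the class I levels was not tested.

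Blood endothelial cells, which line the vessels, had H2-K1 close together in the 3 libraries and H2-D1 lowest in Pdgfrb-Cre. H2-K1 stood at 2167 CPM in Pdgfra-Cre, 1878 in Pdgfrb-Cre and 1925 in WT, and H2-D1 at 4572, 3860 and 5024 CPM in that order. H2-D1 was 1.10-fold lower than in WT (1.06 to 1.14) in Pdgfra-Cre and 1.30-fold lower (1.27 to 1.34) in Pdgfrb-Cre. The ratio of the heavy-chain sum to WT was 1.0 in Pdgfra-Cre (0.975 to 1.03) and 0.850 in Pdgfrb-Cre (0.831 to 0.868). There were 124 Pdgfra-Cre, 200 Pdgfrb-Cre and 625 WT cells, and cluster 14, with 107 WT cells, held 5 Pdgfrb-Cre cells and no Pdgfra-Cre cell. Red-cell markers, 7 in number, summed to 17450 CPM in Pdgfra-Cre endothelial cells, 3.24 in Pdgfrb-Cre and 1971 in WT, and their part was not tested. In cluster 9, which held 76, 132 and 262 cells, the sum was 8025 CPM in Pdgfra-Cre, 6729 in Pdgfrb-Cre and 8543 in WT.

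T cells of Pdgfra-Cre had more H2-D1 but a like level of H2-K1. H2-D1 stood at 4859 CPM in Pdgfra-Cre T cells, 2651 in Pdgfrb-Cre and 3099 in WT, a ratio to WT of 1.57 (1.52 to 1.61) in Pdgfra-Cre and 0.855 (0.837 to 0.875) in Pdgfrb-Cre. H2-K1 stood at 1926, 1615 and 1837 CPM in the same order. Scaling by median-of-ratios size factors moved the median of all genes in this Pdgfra-Cre comparison by -0.20 on the log2 scale and gave H2-K1 a log2 ratio of -0.13, against 0.07 by UMI totals, so the direction for H2-K1 depended on the scaling. Red-cell markers summed to 10380 CPM in Pdgfra-Cre T cells, 1.26 in Pdgfrb-Cre and 16.1 in WT, and their part was not tested. The T cells came from different clusters: Pdgfra-Cre mainly cluster 12 (226 of 301), Pdgfrb-Cre mainly clusters 8 (825) and 12 (509 of 1743), and WT mainly cluster 7 (428 of 594). B cells, 954 in Pdgfrb-Cre and 625 in WT, likewise lay mostly in cluster 13 (940 Pdgfrb-Cre, 23 WT) or cluster 3 (14 Pdgfrb-Cre, 602 WT). H2-K1 stood at 1211 CPM in Pdgfrb-Cre B cells and 1288 in WT, and H2-D1 at 2198 in Pdgfrb-Cre and 2729 in WT. In NK cells, 59 in Pdgfrb-Cre and 56 in WT, H2-K1 stood at 2800 CPM in Pdgfrb-Cre and 2271 in WT (ratio 1.23, 1.11 to 1.37), and H2-D1 at 4514 in Pdgfrb-Cre and 4430 in WT.

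**Figure D3:**
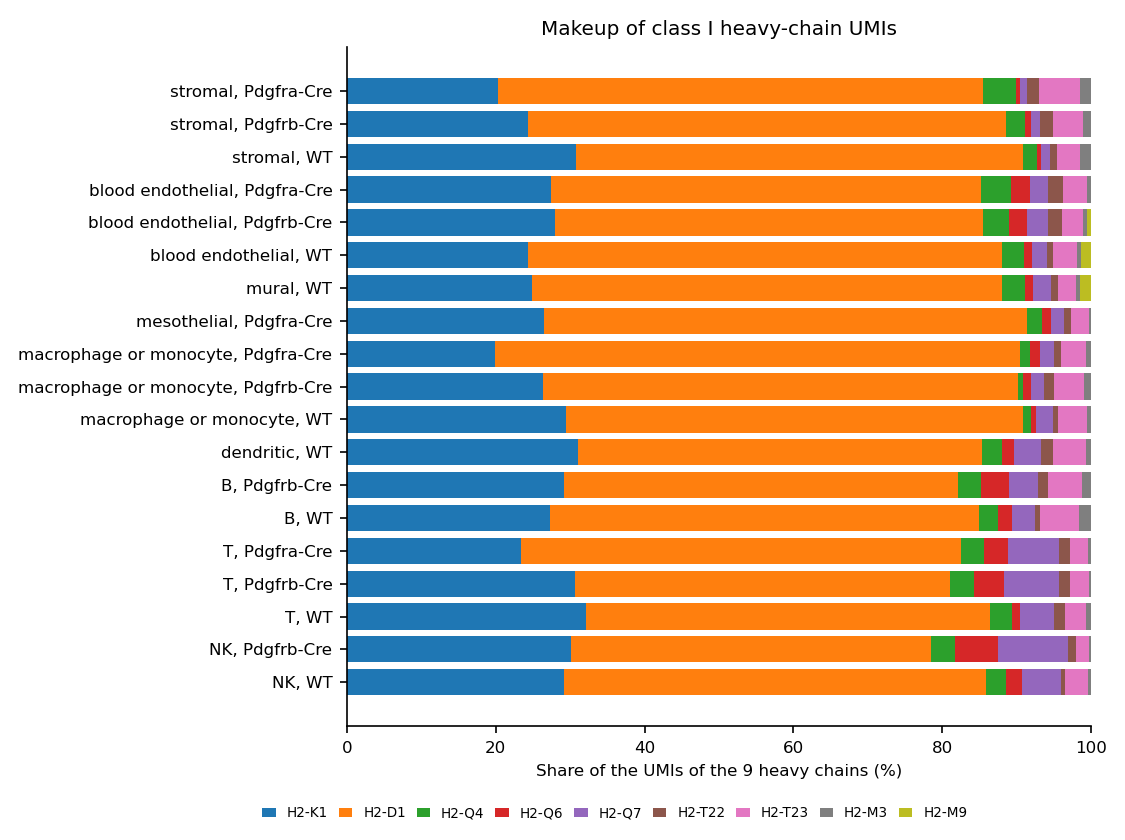
Share of each of the 9 heavy chains among their summed UMIs (percent, stacked bars to 100) by cell class and library. H2-D1 takes 48.5 to 70.5% and H2-K1 19.9 to 32.1% of every bar, and H2-Q6 and H2-Q7 are widest in Pdgfrb-Cre NK cells, at 5.73 and 9.50%.

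The Q genes were the most cell-class-bound of the members apart from H2-M9. H2-Q7, a Qa-2 gene, stood at 884 CPM in Pdgfrb-Cre NK cells and 406 in WT NK cells, and at 30.4 CPM in Pdgfra-Cre, 33.8 in Pdgfrb-Cre and 49.3 in WT stromal cells. H2-Q6, its neighbour, stood at 534 CPM in Pdgfrb-Cre NK cells and 169 in WT, and at 16.1, 23.4 and 24.1 CPM in Pdgfra-Cre, Pdgfrb-Cre and WT stromal cells. In WT, dendritic cells stood above NK cells, at 494 CPM for H2-Q7 and 210 for H2-Q6, with overlapping intervals. The highest sum exceeded the lowest 33.1-fold for H2-Q6, 29.1-fold for H2-Q7 and 10.7-fold for H2-Q4. It did so 7.03-fold for H2-K1, 4.04-fold for H2-D1 and 7.2-fold for B2m. For H2-Q6 and H2-Q7 the ends were Pdgfrb-Cre NK cells and Pdgfra-Cre stromal cells. For H2-Q4 they were WT dendritic cells and Pdgfrb-Cre macrophages. The ranges of the Q genes therefore mix class and library. Within WT alone H2-Q4 ran from 72.3 CPM in stromal to 353 in dendritic cells. H2-T22 ran there from 34.4 to 206 CPM in the same classes, a wider range in proportion. H2-Q7 made up 1.05 to 9.50% of heavy-chain UMIs, H2-Q6 0.556 to 5.73% and H2-Q4 0.718 to 4.32%.

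H2-Q6 was higher than in WT in T and endothelial cells of both Cre libraries and in NK and B cells of Pdgfrb-Cre. It stood at 262 CPM in Pdgfra-Cre T cells, 214 in Pdgfrb-Cre and 57.7 in WT, a ratio to WT of 4.55 (3.84 to 5.40) in Pdgfra-Cre and 3.70 (3.20 to 4.31) in Pdgfrb-Cre. In endothelial cells it stood at 208 CPM in Pdgfra-Cre, 168 in Pdgfrb-Cre and 85.5 in WT, a ratio of 2.43 (1.98 to 2.98) in Pdgfra-Cre and 1.97 (1.65 to 2.35) in Pdgfrb-Cre. NK cells gave a ratio of 3.16 (2.26 to 4.51) and B cells, at 161 CPM in Pdgfrb-Cre and 87.2 in WT, one of 1.84 (1.57 to 2.17). In sums of under 50 cells, Pdgfra-Cre stood at 89.1 CPM in B cells, close to WT, and at 313 in NK cells against 169 in WT. Mural cells stood at 108.5 CPM in Pdgfra-Cre and 126.8 in Pdgfrb-Cre, against 62.3 in WT. Dendritic cells stood at 426 CPM in Pdgfrb-Cre and 210 in WT. In stromal cells and macrophages the intervals of the H2-Q6 ratios all included 1. With marker gates, however, the log2 ratio was 1.34 in Pdgfra-Cre macrophages, against 0.22 by cluster, and -1.17 in Pdgfrb-Cre stromal cells, against -0.03. Both depended on the setting in either direction. Over the alternatives the macrophage value ran from -1.15 to 1.34 and the stromal value from -1.17 to 0.44. Within clusters, H2-Q6 was higher than in WT in 7 of 8 clusters with at least 20 cells in both Pdgfra-Cre and WT (interval above 1 in 4), and in 11 of 13 in Pdgfrb-Cre (interval above 1 in 8), with no interval below 1. In endothelial cluster 9 it stood at 222 CPM in Pdgfra-Cre, 173 in Pdgfrb-Cre and 96.1 in WT, and in T cell cluster 10 (191 Pdgfrb-Cre and 126 WT cells) at 197 CPM in Pdgfrb-Cre and 78.2 in WT.

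H2-Q7 went with H2-Q6 in part. It stood at 566 CPM in Pdgfra-Cre T cells, 388 in Pdgfrb-Cre and 264 in WT, ratios of 2.15 (1.96 to 2.35) and 1.47 (1.37 to 1.58) to WT for Pdgfra-Cre and Pdgfrb-Cre. In macrophages it stood at 126 CPM in Pdgfra-Cre, 80.9 in Pdgfrb-Cre and 249 in WT, a log2 ratio of -0.93 in Pdgfra-Cre that was -0.15 with marker gates. Within clusters its direction was mixed, with 4 of 8 higher in Pdgfra-Cre and 8 of 13 in Pdgfrb-Cre. The ratio of H2-Q6 to H2-Q7 was 0.463 in Pdgfra-Cre T cells, 0.551 in Pdgfrb-Cre and 0.219 in WT, and in endothelial cells 1.12, 0.890 and 0.517 in the same order. In B cells it was 0.995 in Pdgfrb-Cre and 0.607 in WT. In all of these the WT library had the smallest ratio. H2-Q6 and H2-Q7 lie side by side, and how reads were divided between them was not tested. The gene that shared most of the H2-Q6 tail was Efr3a (21.5% of 50-base windows), and for H2-Q7 it was H2-Q5 (5.8%). H2-Q4, another gene of the Q region, stood at 126 CPM in Pdgfra-Cre stromal cells, 77.7 in Pdgfrb-Cre and 72.3 in WT, a ratio to WT of 1.74 (1.34 to 2.28) in Pdgfra-Cre. In macrophages it stood at 85.4 CPM in Pdgfra-Cre, 33.1 in Pdgfrb-Cre and 117 in WT, 3.54-fold lower (2.24 to 5.59) in Pdgfrb-Cre.

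H2-T23, the gene of Qa-1, was the most even of the non-classical genes. It stood between 120 CPM in Pdgfrb-Cre stromal cells and 592 CPM in WT dendritic cells. In stromal cells it stood at 162 CPM in Pdgfra-Cre, 120 in Pdgfrb-Cre and 126 in WT, and in macrophages at 220, 186 and 421 CPM in the same order, 1.92-fold lower (1.49 to 2.47) in Pdgfra-Cre and 2.26-fold lower (1.83 to 2.78) in Pdgfrb-Cre. With marker gates the macrophage log2 ratio was -0.12 in Pdgfra-Cre, against -0.91 by cluster, and -0.68 in Pdgfrb-Cre, against -1.13. H2-T22, whose product is known as a ligand of some gamma delta T cells, was higher in endothelial cells of the Cre libraries. It stood at 159 CPM in Pdgfra-Cre, 123 in Pdgfrb-Cre and 61.0 in WT, ratios of 2.61 (2.05 to 3.31) in Pdgfra-Cre and 2.01 (1.63 to 2.49) in Pdgfrb-Cre. With marker gates the log2 ratios were 0.75 in Pdgfra-Cre and 0.69 in Pdgfrb-Cre. The difference stood also within endothelial cluster 9, at 149 CPM in Pdgfra-Cre, 133 in Pdgfrb-Cre and 58.9 in WT. In T cells H2-T22 stood at 126 CPM in Pdgfra-Cre, 76.9 in Pdgfrb-Cre and 85.2 in WT. With 59.2% of its tail windows shared with H2-T10, H2-T22 counts may include or lack reads of that gene.

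H2-M3, which presents peptides that begin with formyl-methionine, was low everywhere, from 13.6 CPM in Pdgfrb-Cre T cells to 87.2 in WT dendritic cells. In T cells it stood at 38.2 CPM in Pdgfra-Cre, 13.6 in Pdgfrb-Cre and 36.3 in WT, 2.68-fold lower (2.09 to 3.42) in Pdgfrb-Cre than in WT. In stromal cells it stood at 42.1, 31.7 and 55.1 CPM in the same order, and only the Pdgfrb-Cre ratio to WT, 0.575 (0.417 to 0.807), had an interval that left out 1.

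H2-M9 had a pattern of its own among the 10: it was found in few cells, nearly all of them vascular, with up to 34 UMIs in 1 Pdgfrb-Cre cell. It belongs to the M-region genes known from sensory neurons of the vomeronasal organ. WT had 282 UMIs in 62 of 2668 cells, of which 223 UMIs came from 43 of the 107 cells of endothelial cluster 14 (40.2%, Clopper-Pearson 30.8 to 50.1). The leading genes of that cluster were Col13a1, Plvap, Cyp26b1 and Esm1. Mural cells of WT had 48 UMIs in 10 of 123 cells (8.13%). Endothelial markers summed to 14680 CPM in these mural cells, against 36500 CPM in WT endothelial cells, and their part in the mural values, the heavy-chain sum included, was not tested. In WT cluster 14, 1 cell alone held 29 UMIs. Outside endothelial and mural cells, 5 of 1920 WT cells had a UMI (0.260%), at a median depth of 3718 UMIs per cell, and shares near that are read as background.

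H2-M9 UMIs were found in few cells of the Cre libraries. In Pdgfra-Cre, 0 of 124 endothelial cells had an H2-M9 UMI. A count of 0 leaves room for 2.42% of cells at 3 counts, and the Clopper-Pearson interval reaches 2.93%. In the same library mural cells had 6 UMIs in 3 of 32 cells (9.38%). In Pdgfrb-Cre, endothelial cells had 79 UMIs in 4 of 200 cells (2.0%), 32 of them in 1 cell. Of these, 2 cells were among the 5 of cluster 14. Mural cells of Pdgfrb-Cre had 14 UMIs in 3 of 41 cells (7.32%). Over the whole endothelial class, H2-M9 stood at 0 CPM in Pdgfra-Cre, 36.5 in Pdgfrb-Cre and 100 in WT. That is at least 31.0-fold lower in Pdgfra-Cre with its 0 set to 3 counts, and 2.75-fold lower (2.12 to 3.60) in Pdgfrb-Cre. Cluster 14 held 107 WT cells, 5 Pdgfrb-Cre cells and 0 Pdgfra-Cre cells, so fewer cells of the kind and less RNA per cell cannot be told apart. At Leiden resolutions 0.5 and 2 the 107 WT and 5 Pdgfrb-Cre cells of cluster 14 all took the mural name instead. The log2 ratio of H2-M9 in the endothelial class to WT was then -0.39 in Pdgfra-Cre, against -3.47 at resolution 1, and 1.0 in Pdgfrb-Cre, against -1.25. With marker gates it was -0.31 in both. The endothelial ratios therefore rested on where cluster 14 was placed. At resolution 2 the cluster that took in its cells held 117 WT, 18 Pdgfra-Cre and 9 Pdgfrb-Cre cells.

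**Figure D4:**
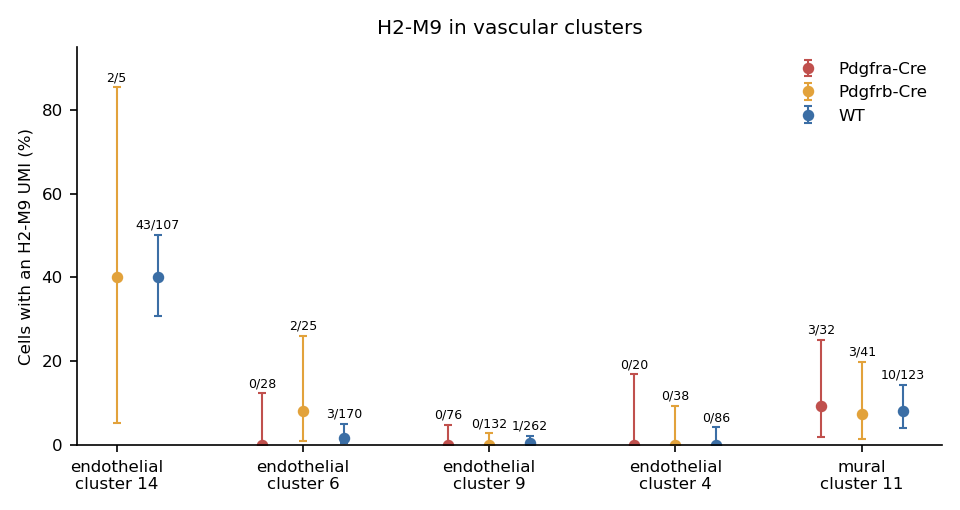
Share of cells with at least 1 H2-M9 UMI (percent, with 95% Clopper-Pearson intervals) in endothelial clusters and mural cells of the Pdgfra-Cre, Pdgfrb-Cre and WT libraries, with cells with a UMI over all cells above each point. Cluster 14 stands highest, at 43 of 107 WT cells and 2 of 5 Pdgfrb-Cre cells, and held no Pdgfra-Cre cell.

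B2m, the light chain, followed the heavy chains in stromal cells and macrophages. It stood at 819 CPM in Pdgfra-Cre stromal cells, 1119 in Pdgfrb-Cre and 1790 in WT, 2.19-fold lower (2.06 to 2.32) in Pdgfra-Cre and 1.60-fold lower (1.51 to 1.69) in Pdgfrb-Cre. In macrophages it stood at 2063 CPM in Pdgfra-Cre, 2314 in Pdgfrb-Cre and 4483 in WT, 2.17-fold lower (2.01 to 2.35) in Pdgfra-Cre and 1.94-fold lower (1.82 to 2.06) in Pdgfrb-Cre. Endothelial cells held it level, at 2010 CPM in Pdgfra-Cre, 1939 in Pdgfrb-Cre and 2102 in WT. T cells stood at 2165, 1816 and 2036 CPM in the same order, B cells at 1517 in Pdgfrb-Cre and 1465 in WT, and NK cells at 2558 in Pdgfrb-Cre and 2519 in WT. The heavy-chain sum was 1.99 to 4.16 times B2m in the 19 sums, and in stromal cells 3.55 times in Pdgfra-Cre, 2.65 in Pdgfrb-Cre and 2.23 in WT. The stromal difference in B2m was thus larger than that of the heavy-chain sum in both Cre libraries.

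Across the 19 sums, levels of several members were correlated. Pearson's r of log2(CPM + 10) was 0.894 between H2-K1 and H2-D1, 0.907 between B2m and H2-K1, 0.837 between B2m and H2-D1 and 0.899 between H2-Q6 and H2-Q7. It was 0.809 between H2-Q7 and H2-K1 and 0.778 between H2-T23 and B2m, so the pairs crossed from classical to non-classical genes. These points share libraries and depth and are a description. Of 2919 genes with at least 50 CPM on average, Psme1, a subunit of the proteasome activator PA28, was among the 3 most like H2-K1 (0.761), H2-D1 (0.754) and B2m (0.815). Its partner Psme2 was among the 3 for B2m (0.798) and H2-T23 (0.802). Arap2 (0.842) and Nabp1 (0.844) led for H2-Q7, and Arap2 (0.816) and Clcn3 (0.815) for H2-Q6. Polr2l (0.86) led for H2-T23, Mphosph8 (0.803) for H2-Q4 and Eloc (0.721) for H2-T22.

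The processing pathway feeds these molecules: the immunoproteasome (Psmb8, Psmb9, Psmb10) cuts peptides, Tap1 and Tap2 pump them into the endoplasmic reticulum, and Calr, Canx, Pdia3 and Tapbp help load them. Of 29 listed genes of processing and control, 25 had at least 10 CPM in stromal cells, of which 2 were past 2-fold in Pdgfra-Cre against WT (1 higher, 1 lower), where 24.1% of all genes were, and 5 in Pdgfrb-Cre (1 higher, 4 lower), where 23.1% were. Irf1, an interferon-induced transcription factor that acts on class I promoters, stood at 194 CPM in Pdgfra-Cre stromal cells, 193 in Pdgfrb-Cre and 67.7 in WT, 2.87 and 2.85 times WT. The immunoproteasome gene Psmb8 stood at 100 CPM in Pdgfra-Cre stromal cells, 90.6 in Pdgfrb-Cre and 197 in WT. Irf1 was thus higher, and Psmb8 lower, in the stromal cells that had less H2-K1 and B2m. Irf8, a factor of myeloid and B cells, stood at 8.07 CPM in Pdgfra-Cre stromal cells, 6.60 in Pdgfrb-Cre and 73.4 in WT, beside the B cell markers given above. Calr, the chaperone with the highest level, stood at 672, 719 and 621 CPM. In cluster 17, Psmb8 stood at 95.3 CPM in Pdgfrb-Cre and 166 in WT, and Irf1 at 217 in Pdgfrb-Cre and 74.3 in WT.

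In endothelial cells 2 of 27 such genes were past 2-fold in Pdgfra-Cre, both higher (background 13.3%), and 1 of 28 in Pdgfrb-Cre, higher (13.8%). Irf1 stood at 498 CPM in Pdgfra-Cre, 516 in Pdgfrb-Cre and 160 in WT, and in cluster 9 alone at 428, 538 and 136 CPM. In macrophages 7 of 26 were past 2-fold in Pdgfra-Cre (1 higher, 6 lower; background 34.5%) and 4 of 27 in Pdgfrb-Cre, all lower (31.4%). Irf8 stood at 48.8 CPM in Pdgfra-Cre macrophages, 144 in Pdgfrb-Cre and 288 in WT. Of the listed genes over 10 CPM, 16 of 26 were below WT in Pdgfra-Cre macrophages and 17 of 27 in Pdgfrb-Cre. Psmb8 stood at 372 CPM in Pdgfra-Cre, 274 in Pdgfrb-Cre and 444 in WT, and Psmb9 at 175, 106 and 228 CPM. Irf8, Psmb8 and Psmb9 were thus lower in both Cre libraries, while Irf1 and Ifngr1 were each lower in only 1. Irf1 stood at 87.4 CPM in Pdgfra-Cre macrophages, 178 in Pdgfrb-Cre and 117 in WT, and Ifngr1 at 366, 217 and 236 CPM in the same order.

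**Figure D5:**
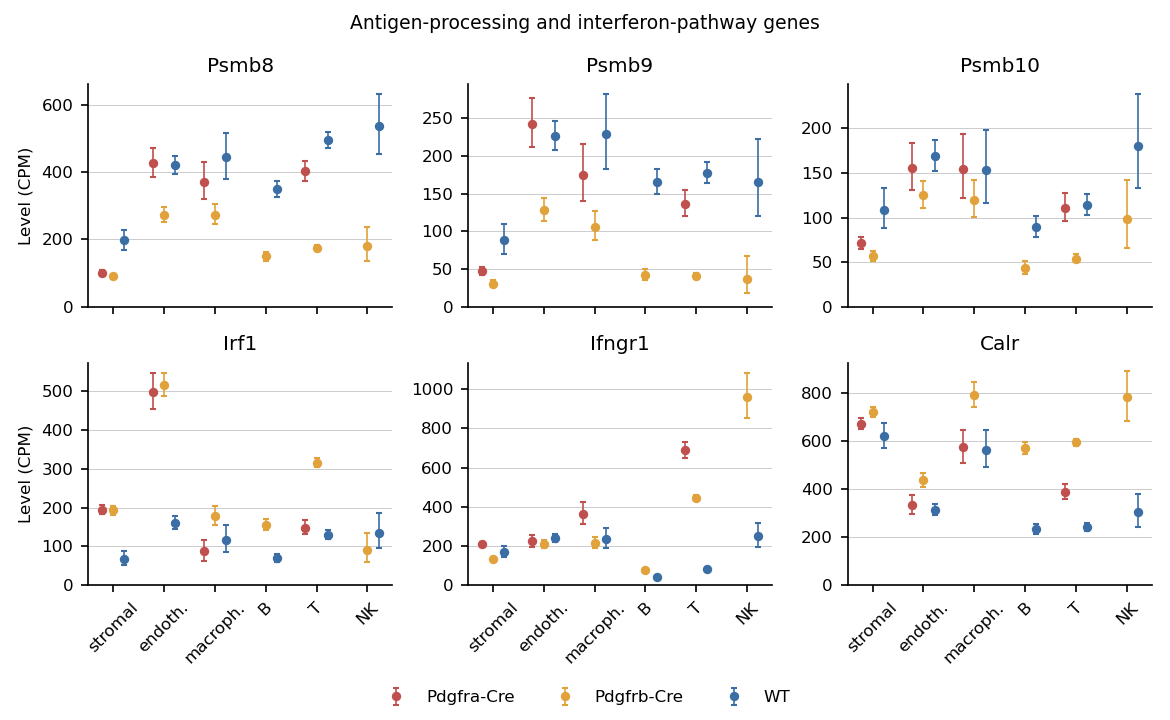
Levels (CPM, axes from 0) of Psmb8, Psmb9, Psmb10, Irf1, Ifngr1 and Calr by cell class in the Pdgfra-Cre, Pdgfrb-Cre and WT libraries, with bars for 95% Poisson intervals. Irf1 is higher in the stromal and endothelial cells of both Cre libraries, and Psmb8, Psmb9 and Psmb10 are lower in the T, B and NK cells of Pdgfrb-Cre, than in those of WT.

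Lymphocytes of Pdgfrb-Cre had less immunoproteasome RNA than those of WT. Of 25 genes in T cells, 11 were past 2-fold (5 higher, 6 lower), against 22.7% of all genes. There were 11 of 27 in B cells (3 higher, 8 lower), against 22.4%, and 9 of 24 in NK cells (4 higher, 5 lower), against 42.8%. In Pdgfra-Cre T cells 4 of 25 were (3 higher, 1 lower), against 16.7%. Psmb9 stood at 41.5 CPM in Pdgfrb-Cre T cells and 178 in WT, at 42.5 in Pdgfrb-Cre B cells and 166 in WT, and at 37.4 in Pdgfrb-Cre NK cells and 165 in WT. Psmb8 stood at 174 CPM in Pdgfrb-Cre T cells and 496 in WT. This held within T cell cluster 10, where Psmb8 stood at 254 CPM in Pdgfrb-Cre and 685 in WT and Psmb9 at 89.3 in Pdgfrb-Cre and 268 in WT. Calr went the other way, at 595 CPM in Pdgfrb-Cre T cells and 241 in WT, and at 570 in Pdgfrb-Cre B cells and 233 in WT. Ifngr1, the ligand-binding chain of the interferon gamma receptor, stood at 689 CPM in Pdgfra-Cre T cells, 447 in Pdgfrb-Cre and 84.0 in WT, and in cluster 10 at 581 in Pdgfrb-Cre and 82.6 in WT. In NK cells Irf8 stood at 1299 CPM in Pdgfrb-Cre and 109 in WT.

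Genes listed as receptors of class I were measured where lymphocytes and myeloid cells were. None of the 10 listed reached 10 CPM in stromal, endothelial or B cells. Of the 6 over 10 CPM in T cells, 5 were past 2-fold in Pdgfra-Cre against WT, all higher, where 16.7% of all genes were past 2-fold. Cd8b1, the beta chain of the CD8 coreceptor, stood at 469 CPM in Pdgfra-Cre T cells and 189 in WT. Klrd1 (CD94), which pairs with NKG2 to bind Qa-1, stood at 216 CPM in Pdgfra-Cre T cells, 93.9 in Pdgfrb-Cre and 41.6 in WT, and Klrc1 (NKG2A) at 81.4, 35.8 and 3.81 CPM. Klra9 had no UMI in WT T cells. With that set to 3 counts, it was at least 41.55-fold higher in Pdgfra-Cre and at least 8.69-fold higher in Pdgfrb-Cre. Cluster 12, whose leading genes include Klrc2, held 226 Pdgfra-Cre, 509 Pdgfrb-Cre and 10 WT T cells, and its part in these values was not tested. Of the 9 over 10 CPM in NK cells, 3 were past 2-fold higher and 2 lower in Pdgfrb-Cre against WT, where 42.8% of all genes were past 2-fold. Among the higher, Klra4 stood at 367 CPM in Pdgfrb-Cre NK cells and 75.1 in WT. Klra8 stood at 371 in Pdgfrb-Cre and 11.3 in WT, the WT value being 3 UMIs (ratio 32.9, 11 to 162). Both are activating members of the Ly49 family, and Klra8 was also one of the markers that named the NK cells. Of the 3 over 10 CPM in macrophages, 1 was past 2-fold higher and 1 lower in Pdgfrb-Cre against WT, where 31.4% of all genes were past 2-fold. The higher was the inhibitory receptor gene Lilrb4a, at 168 CPM in Pdgfrb-Cre macrophages and 75.3 in WT. Nothing measured here shows that its product binds class I.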

How the data were processed

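Single-cell 3′ RNA libraries (10x v3 chemistry) of 3 genotypes, 1 library each, were used. The deposited values are raw counts (UMIs per gene and barcode). The submitters' processing notes name Cell Ranger 3.1.0, STAR 2.6 and the build mm10.

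Barcodes were kept from 500 genes upward if mitochondrial UMIs were 15% or less, and those with the highest Scrublet doublet scores, 0.8% for each 1000 barcodes, were left out (16 in Pdgfra-Cre, 130 in Pdgfrb-Cre and 60 in WT). With scanpy 1.11.5 under Python 3.11.15, log values of counts per 10000 in 2000 variable genes (none an MHC gene or B2m) were reduced to 30 components, and a graph of 15 neighbours was split into 27 Leiden clusters at resolution 1, without integration of libraries. Names came from lists of markers for each class, by a rule of which a part was settled after the clusters were seen. UMIs were summed per class and library (at least 50 cells) and divided by the class total. A 0 was set to 3 counts for a bound. Levels have exact Poisson intervals, shares Clopper-Pearson intervals and ratios conditional binomial intervals (scipy 1.17.1), at the 95% level. Genes with at least 10 CPM in either library entered the counts past 2-fold. The code was tested on simulated data.

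The members, the pathway list and the receptor list were chosen with earlier results of these data known. All 10 members are named. Pathway genes were to be named by size of difference (the 4 largest in each comparison) or level, and receptors if past 2-fold. Not every gene that met this is named here. Values of 1 gene of the pathway list are not reported here. Irf1, Psmb8 and similar values within clusters, and class II genes, were chosen after their values were seen. The 8 alternatives planned were other scalings, filters, resolutions, weights and class definitions, and 3 more (deeper cells, stromal cells outside cluster 18, and cluster 17) were added after seeing the data.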

Additional observations from a re-analysis of the deposited data

Results flagged for a closer look

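H2-Q7 had opposite directions in different cell classes of the same pair of libraries. In Pdgfra-Cre against WT its ratio was 2.15 in T cells and 0.506 in macrophages. In Pdgfrb-Cre against WT it was 2.18 in NK cells and 0.325 in macrophages. With marker gates the macrophage log2 ratio was -0.15 in Pdgfra-Cre, against -0.93 by cluster, and -0.97 in Pdgfrb-Cre, against -1.51. Each value is 1 library against 1 library, and the difference between cell classes was not tested. The T cells of the 3 libraries lay mostly in different clusters, as described with their levels.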

How the results depend on the processing

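No paired analysis was possible because each genotype was 1 library. For the stromal heavy-chain sum in Pdgfra-Cre against WT, the log2 ratio of -0.46 was -0.52 with size factors, -0.60 without mitochondrial and ribosomal genes, -0.10 with marker gates and 0.0176 in the 32 Pdgfra-Cre cells outside cluster 18. For B2m there, -1.12 became -1.27 without mitochondrial and ribosomal genes, -0.79 with marker gates and -0.55 outside cluster 18. For the heavy-chain sum in Pdgfrb-Cre, -0.43 became -0.32 with size factors, -0.49 without mitochondrial and ribosomal genes, -0.97 with marker gates and -0.37 in cluster 17, and for B2m -0.67 became -0.57 with size factors, -1.17 with gates and -0.50 in cluster 17. Of stromal genes past 2-fold, 2206 in Pdgfra-Cre and 2039 in Pdgfrb-Cre, there were 7684 and 7460 with no minimum level. Of 816 other values for 102 member ratios, 15 values in 10 ratios were counted as turned in direction. That count does not hold every change of sign. H2-Q4 in Pdgfrb-Cre stromal cells, at 0.09, ran from -0.87 to 0.76 over the alternatives. H2-Q6 in Pdgfra-Cre macrophages, at 0.22, ran from -1.15 to 1.34. The main intervals of both included 0, and neither was counted. Those counted in Pdgfra-Cre stromal cells against WT were the heavy-chain sum at 0.0176 and H2-T23 at -0.33, both outside cluster 18. Also counted there were H2-D1 at 0.0041 with gates and 0.18 outside cluster 18, and H2-Q7 at 0.59 with gates. In Pdgfra-Cre endothelial cells, H2-K1 was counted at -0.0075 as a mean over cells and -0.15 with gates. In Pdgfra-Cre T cells, H2-K1 was counted at -0.13 with size factors and -0.13 without mitochondrial and ribosomal genes. B2m was counted there at -0.11 under both. Those counted in Pdgfrb-Cre were H2-M9 in endothelial cells at 1.0 under both other resolutions and H2-M3 in B cells at 0.0239 with gates. The last was the heavy-chain sum in Pdgfrb-Cre T cells, at 0.0092 with size factors. The cause was not tested. Shares of heavy-chain UMIs moved by at most 5.85 points (H2-D1) over 488 values. The stray-RNA level, the WT depth of 1682 UMIs per stromal cell and 1 library per genotype limit what these differences can show.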

Other observations

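Class I genes beyond the 10 were rare but not evenly spread. H2-M2 stood at 1368 CPM in WT dendritic cells, and in macrophages at 0 CPM in Pdgfra-Cre, 13.1 in Pdgfrb-Cre and 283 in WT. H2-T3 stood at 0 CPM in Pdgfra-Cre T cells, 0.180 in Pdgfrb-Cre and 18.4 in WT (63 UMIs). H2-Q10 stood at 72.4, 36.3 and 26.6 CPM in T cells in the same order.

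The class II gene H2-Eb1, which encodes a beta chain of the MHC class II molecule I-E, stood at 4672 CPM in Pdgfrb-Cre B cells and 183 in WT, and in macrophages at 1754 CPM in Pdgfra-Cre, 2482 in Pdgfrb-Cre and 90.9 in WT. The class II gene H2-Aa stood at 6605 CPM in Pdgfrb-Cre B cells and 3909 in WT. The labels used here do not state the strain or MHC haplotype of the animals, and their part in any H2 difference was not tested.

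Barcodes under 500 genes, which were left out, also held class I RNA. The heavy chains summed to 637 CPM in 807 such barcodes of Pdgfra-Cre, 4894 in 207 of Pdgfrb-Cre and 7054 in 1200 of WT, and haemoglobin stood at 767300, 65130 and 7515 CPM in the same order.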
